A study of Mus musculus with 13 samples.

Results

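The genes described here build the clathrin coat, the endosomes and the ESCRT and retromer complexes that sort what a cell has taken up. They are 51 genes, listed by symbol for their roles in these machineries, with no measured value in the rule although earlier results of these data were known, and all 51 were among the 35013 gene symbols of the deposited table and among the 16468 that had enough counts to be tested. By role they fall into 6 lists, with 11 genes of the clathrin coat, its adaptor AP-2 and vesicle scission, 9 endosomal Rab GTPases, 5 Rab5 effectors and early endosome proteins, 11 genes of the ESCRT complexes and Vps4, 9 of retromer and the sorting nexins, and 6 of the HOPS and CORVET tethers. The study asked how nascent RNA of the kidney proximal tubule changed after loss of Spns1, a membrane protein of late endosomes and lysosomes, and after iron loading. It measured RNA tagged with 4-thiouracil in the kidneys of female mice, in 4 libraries labelled Spns1 KO, 5 labelled WT and 4 labelled Iron Overload (FeO).

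All mice carried the tamoxifen-inducible Cre placed behind megalin (Megalin3'Cre-Ert) and a floxed Uprt allele, so the enzyme that puts the tag into RNA was meant to act only in cells that express megalin. The mice labelled Spns1 KO were Spns1 flox/flox. The methods give WT and FeO mice the genotype Spns1 flox/+, whereas the labels call both Spns1 WT. FeO mice were otherwise as WT but received 12 mg of iron by injection as iron sucrose on each of 3 days and were killed 1 week later. The tagged RNA was pulled out of whole kidney extract on streptavidin beads and selected for poly-A tails. Both comparisons with WT used the same 5 WT libraries and are therefore not independent of each other.

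Levels are given as CPM, which are counts set on a common scale so that libraries of different depth can be compared. Total counts lay between 31809135 and 71296474 in the libraries labelled Spns1 KO, between 23068023 and 37362311 in WT and between 25986133 and 29981814 in FeO. Spns1 itself was at 39.0, 44.5, 36.6 and 59.0 CPM in the libraries labelled Spns1 KO 1 to 4, at 57.2, 61.4, 57.6, 39.2 and 62.9 CPM in WT 1 to 5 and at 58.7, 56.7, 39.0 and 45.9 CPM in FeO 1 to 4. The targeted gene thus did not separate the libraries labelled Spns1 KO from WT (log2 fold change -0.31, adjusted p = 0.225, from edgeR's quasi-likelihood fit), and every direction given below for that group rests on the label. The floxed allele loses an exon, and a deposited count covers the whole gene. The library labelled Spns1 KO 4 had the highest Spns1 level of its group and also stood apart from the others of its label over all genes. Its per-gene chi-square against the other 3 libraries of its label had a median of 18.4 to 26.5, while those 3 differed from each other by 4.06 to 5.38. The FeO pairs had 12 to 22.2 and the WT pairs up to 13, so the gap is one within its own group. This chi-square uses unscaled counts and grows with depth, so its values are not on one scale across groups. WT 1 and WT 2 differed by 1.24, the least of the pairs within a group and above the 0.455 that sampling alone gives. They were kept as separate samples, though this does not show that they came from separate mice. Nothing in the labels says that the libraries of a group came from separate mice, so p-values measure the spread between these libraries.

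The captured RNA held the defining markers of the labelled cell type, and also those of other kidney cells. The 8 proximal tubule markers summed to between 3258.3 and 4439.2 CPM in WT, between 6587.7 and 7636.1 CPM in the libraries labelled Spns1 KO and between 2243.3 and 5297.4 CPM in FeO. The 6 collecting duct markers summed to between 342.9 and 581.8 CPM in WT, 304.8 and 490.9 CPM in the libraries labelled Spns1 KO and 522.1 and 1581.0 CPM in FeO. Single markers did not all follow these sums. By the limits used below, 3 of the 6 were up and 0 down in the libraries labelled Spns1 KO (median log2 fold change 0.67), and 5 up and 0 down in FeO (1.30). Of the 8 proximal tubule markers, 6 were up and 0 down in the former (0.88), and 2 up and 1 down in FeO (-0.32). The 5 macrophage markers summed to between 45.5 and 54.4 CPM in WT, 62.1 and 74.4 CPM in the libraries labelled Spns1 KO and 71.3 and 92.9 CPM in FeO. Of the other 8 lists, some had ranges that did not overlap with WT. B and plasma cell markers summed to 2.55 to 14.1 CPM in WT, 18.5 to 81.2 in the libraries labelled Spns1 KO and 22.4 to 94.3 in FeO. Erythroid markers were at 32.8 to 128.3 CPM in the libraries labelled Spns1 KO (WT 6.64 to 27.4), with fibroblast markers there at 88.3 to 124.2 (WT 47.7 to 68.7) and T cell markers at 1.15 to 2.59 (WT 0.756 to 1.13). In FeO, podocyte markers were at 244.5 to 582.4 CPM (WT 134.0 to 241.6) and T cell markers at 1.5 to 4.07. The loop of Henle, distal convoluted tubule and endothelial lists overlapped WT in both groups. No marker of the 11 lists was at 0 in any group. The genes described here are used by every cell, and fewer cells of a type cannot be told apart from less RNA per cell in such samples. The part of these shifts in the results below was not tested.

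Clathrin triskelia assemble on the plasma membrane around cargo gathered by AP-2, and dynamin cuts the coated bud loose. On the early endosome Rab5 recruits tethers and fusion factors, ESCRT complexes pull ubiquitinated cargo into inward vesicles, retromer and sorting nexins send other cargo back, and conversion from Rab5 to Rab7 with the help of HOPS leads to fusion with lysosomes. The proximal tubule runs this cycle at a very high rate, because megalin and cubilin recover filtered protein from the urine through it.

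In WT the level per kilobase of transcript differed widely among the 51 genes, with a median of 23.3 CPM per kilobase. The clathrin heavy chain Cltc had the highest at 94.5 ± 26.6 (SD, n = 5), and Rab7, the GTPase of late endosomes, followed at 81.3 ± 7.09. Rab14, which acts between the Golgi and endosomes, was at 67.6 ± 10.5 and the clathrin assembly protein Picalm at 62.0 ± 6.57. The SDs of these 4 neighbours in the order reach into each other's ranges. The lowest were Hgs, the ESCRT-0 subunit that binds ubiquitinated cargo, at 7.01 ± 1.15 and the recycling GTPase Rab4a at 8.58 ± 0.56 CPM per kilobase.

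RefSeq promoter sequences (GRCm38.p6, from 250 bases before to 50 after the start) were at hand for 40 of the 51 genes. They were searched for CACGTG, the E-box core, and for the palindrome GTCACGTGAC that contains it, the letters of the CLEAR element bound by TFEB, a regulator of lysosomal genes. Both motifs read the same on either strand. CACGTG stood in the promoters of 8 of the 40 genes (20%), against 10.8% of the 12345 tested genes with a promoter. The longer palindrome stood in 5 of the 40 (12.5%), against 0.648% of those tested genes, and the 5 genes come from 4 of the role lists. Picalm holds it at 2 places, and Vps26a holds it once before each of its 2 annotated starts, which gives 7 sites. All 7 are shown, with the palindrome in capitals and 10 bases on either side, each written along the gene's own strand. The Picalm sites lie at chr7:90130010-90130039 and chr7:90130200-90130229 (+), where the palindrome begins 193 and 3 bases before the start. The Vps26a sites lie at chr10:62486732-62486761 and chr10:62486970-62486999 (-), 153 and 184 bases before their own starts. The Rab5a site lies at chr17:53479127-53479156 (+), the Vps16 site at chr2:130424290-130424319 (+) and the Vps33a site at chr5:123573010-123573039 (-), 97, 20 and 14 bases before the start.
Picalm, far site: ggcagggcgcGTCACGTGACgcggcgggcc
Picalm, near site: cggaacccgaGTCACGTGACctaggggcag
Rab5a: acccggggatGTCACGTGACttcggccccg
Vps26a, one start: atggcctacgGTCACGTGACgggcggcggg
Vps26a, other start: cgcacggctcGTCACGTGACaactagctct
Vps16: aggcggcctcGTCACGTGACcccgaagggc
Vps33a: tgaacgtcccGTCACGTGACgcaggcggcg
A match of letters is a description and not a binding site. Of these 5 genes, Vps26a passed the limits in FeO, and no other passed them in either comparison with WT.

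Genes past both limits, an adjusted p of 0.05 over all tested genes in the edgeR fit and a log2 fold change of 0.5, are named up- or downregulated below. In the libraries labelled Spns1 KO, 11 of the 51 genes were upregulated and 1 was downregulated, against 14.1% and 7.6% of all tested genes (21.7% in either direction). Their median log2 fold change was 0.17, compared with -0.05 over all tested genes. Of the 51 genes, 31 lay above WT, against 46.8% of all tested genes. In FeO, 18 were upregulated and 2 downregulated, against 22.4% and 19.7% of all tested genes (42.2% in either direction). The median was 0.32 compared with -0.01 over all tested genes, and 35 lay above WT, against 49.5% of all tested genes. By gene, 9 were upregulated in both comparisons, namely Clta, Ap2m1, Ap2s1, Rab4a, Rab5c, Rab7, Vps28, Chmp2a and Chmp4b, and 28 passed the limits in neither. The share of all tested genes with these patterns was not counted, and both comparisons used the same WT libraries. The 2 counts are therefore a description and do not set the 51 genes apart.

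**Figure D1:**
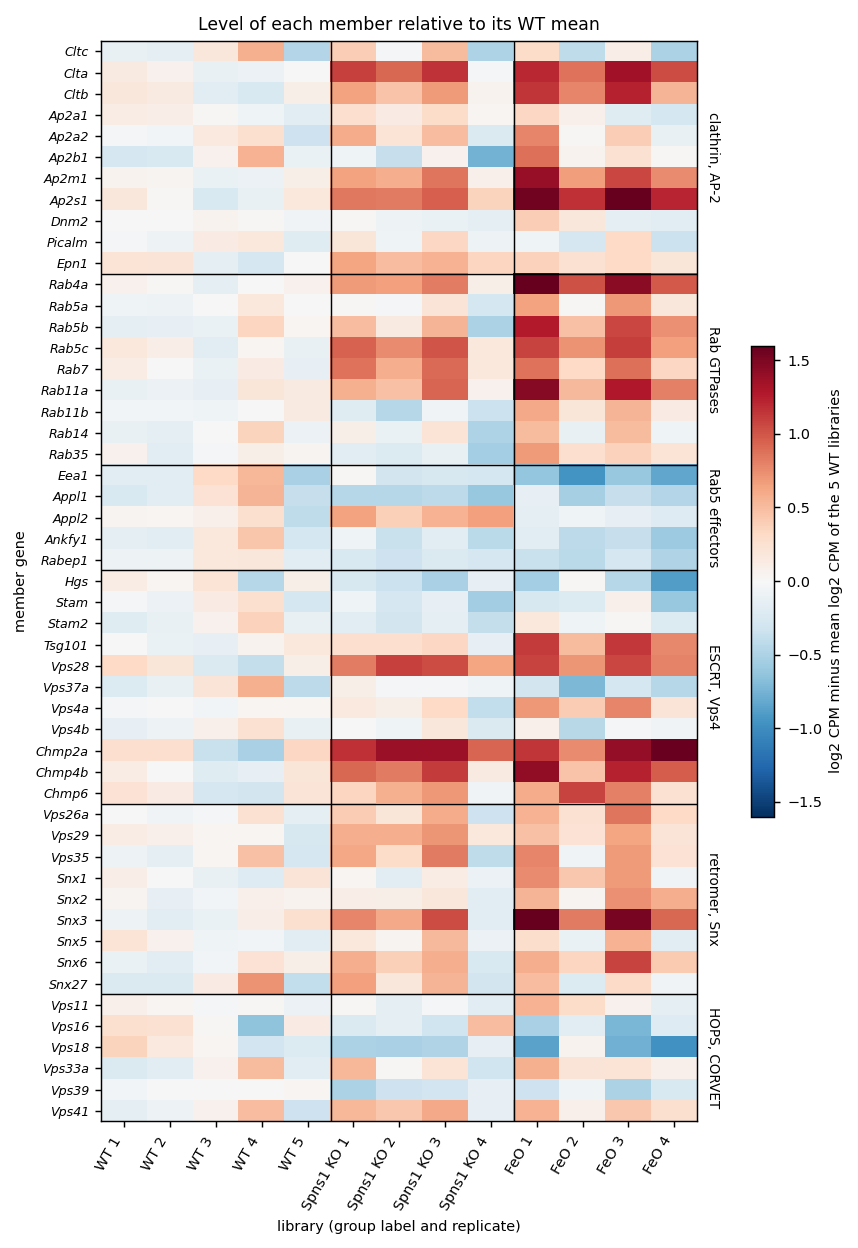
Level of each of the 51 genes (rows, by role list) in each library (columns), as log2 CPM minus the mean log2 CPM of the 5 WT libraries. Red is above and blue below the WT mean. Many rows are red in FeO 1 and FeO 3 and in the libraries labelled Spns1 KO 1 to 3, while the library labelled Spns1 KO 4 is pale or blue in most, and the Rab5 effectors are blue in FeO.

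The library labelled Spns1 KO 4 was the exception in its group. The median of the 51 genes, relative to their WT means, was 0.27, 0.10 and 0.33 on the log2 scale in the libraries labelled Spns1 KO 1, 2 and 3 and -0.14 in Spns1 KO 4. In FeO it was 0.56, 0.18, 0.51 and 0.13, so FeO 1 and FeO 3 lay well above FeO 2 and FeO 4. In WT the same median lay between -0.09 and 0.10. With number 4 left out, 18 genes were upregulated against WT and Appl1 was no longer downregulated. Calls over all genes also rose in that fit, from 2325 up and 1252 down to 3006 and 2667. The 18 included all 11, and Cltb, Epn1, Rab11a, Chmp6, Vps35, Snx3 and Snx6 were added. Some genes had ranges that did not overlap between groups. In the libraries labelled Spns1 KO, 8 genes lay above and 3 below every WT library, against 13.1% and 9.38% of all tested genes. In FeO, 19 lay above and 3 below, against 16.9% and 16.4%.

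In the clathrin and AP-2 list, the light chain gene Clta and the medium and small AP-2 subunit genes were upregulated in both comparisons and the light chain gene Cltb in FeO, while the heavy chain and the large AP-2 subunits did not pass the limits. Differences between subunits were not tested. After length and GC content were accounted for, some of the subunit values lay closer together and others did not. In the libraries labelled Spns1 KO, log2 fold changes were then 0.51 for Clta and 0.47 for Cltc, and 0.11 for Ap2s1 and 0.40 for Ap2a2. Ap2m1 there had 0.58, against 0.09 for Ap2a1 and -0.005 for Ap2b1. In FeO Ap2s1 and Ap2m1 had 0.82 and 0.94, against 0.002 for Ap2a1 and 0.495 for Ap2a2. Clta had 0.73 in FeO against 0.39 for Cltc, and the large subunit gene Ap2b1 was upregulated at 0.69. Of the 11 genes, 3 were up in the libraries labelled Spns1 KO and 4 in FeO, with none down in either. Over all tested genes 14.1% and 22.4% were upregulated. Ap2s1, the small (sigma) subunit that holds the AP-2 core together (chromosome 7, 16738410 to 16749294), was at 14.6, 13, 10.9, 11.8 and 14.4 CPM in WT 1 to 5. It was at 23, 22.9, 25.0 and 16.4 CPM in the libraries labelled Spns1 KO 1 to 4 and at 37.6, 28.8, 38.7 and 29.8 CPM in FeO 1 to 4. The 3 groups did not overlap, with the libraries labelled Spns1 KO between WT and FeO. Its log2 fold change was 0.75 (SE 0.164, adjusted p = 0.00472, edgeR) in the libraries labelled Spns1 KO and 1.38 (SE 0.165, adjusted p = 0.000246, edgeR) in FeO. Clta, the clathrin light chain A (chromosome 4, 44004452 to 44032846), was at 42.6, 40.6, 35.7, 36.2 and 38.8 CPM in WT and at 89.3, 70.6, 98.5 and 80.1 CPM in FeO. It was at 82.5, 73.1, 86.3 and 38.0 CPM in the libraries labelled Spns1 KO. The first 3 of these lay above all WT libraries and the library labelled Spns1 KO 4 lay inside the WT range, while all FeO libraries lay above it. The log2 fold changes were 0.85 (SE 0.196, adjusted p = 0.00648, edgeR) and 1.13 (SE 0.196, adjusted p = 0.000602, edgeR).

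Ap2m1, the medium (mu) subunit that reads tyrosine-based sorting signals, was at 113.9, 112.6, 102.0, 102.9 and 117.2 CPM in WT and at 287.7, 174.5, 230.4 and 184.9 CPM in FeO. In the libraries labelled Spns1 KO it was at 171.0, 164.4, 198.0 and 116.2 CPM, the last again inside the WT range. The log2 fold change was 0.57 (SE 0.181, adjusted p = 0.0333, edgeR) in the libraries labelled Spns1 KO and 1.00 (SE 0.181, adjusted p = 0.000717, edgeR) in FeO. The first of these calls was lost when any one of the libraries labelled Spns1 KO 1, 2 or 3 or of WT 1 to 4 was left out, with log2 fold changes of 0.46 to 0.58. The Ap2m1 count is uncertain in another way, since 45.1% of its 31-base words also occur in other annotated genes, mostly the pseudogene Gm13509. Cltb, the light chain B, was upregulated in FeO, at 0.94 (SE 0.173, adjusted p = 0.000774, edgeR), and had a log2 fold change of 0.47 in the libraries labelled Spns1 KO (adjusted p = 0.0608, edgeR). Epn1, the ubiquitin-binding adaptor epsin 1, lay above WT in every library labelled Spns1 KO but fell just short of the fold limit at 0.4997 (adjusted p = 0.0205, edgeR).

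The partners of these subunits gave smaller values. Cltc was at 431.3 to 884.1 CPM in WT, at 423.4 to 849.9 in the libraries labelled Spns1 KO and at 421.6 to 732.6 in FeO, so all 3 ranges overlapped (log2 fold changes 0.10 and -0.13). For the alpha subunits Ap2a1 and Ap2a2 they were 0.18 and 0.29 in the libraries labelled Spns1 KO and -0.0005 and 0.30 in FeO. For the beta subunit Ap2b1 they were -0.28 and 0.31. The scission GTPase Dnm2 had -0.08 and 0.08, with an approximate 95% interval of the log2 fold change in FeO from -0.20 to 0.36, and Picalm, whose promoter holds the palindrome, had 0.10 and -0.07. The ratio of light to heavy chain is a comparison chosen after the values were seen. Per kilobase, Clta to Cltc was 0.156 to 0.343 in WT, 0.342 to 0.470 in the libraries labelled Spns1 KO and 0.465 to 0.724 in FeO. Every FeO library thus lay above every WT library, and only the library labelled Spns1 KO 4 lay inside the WT range.

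**Figure D2:**
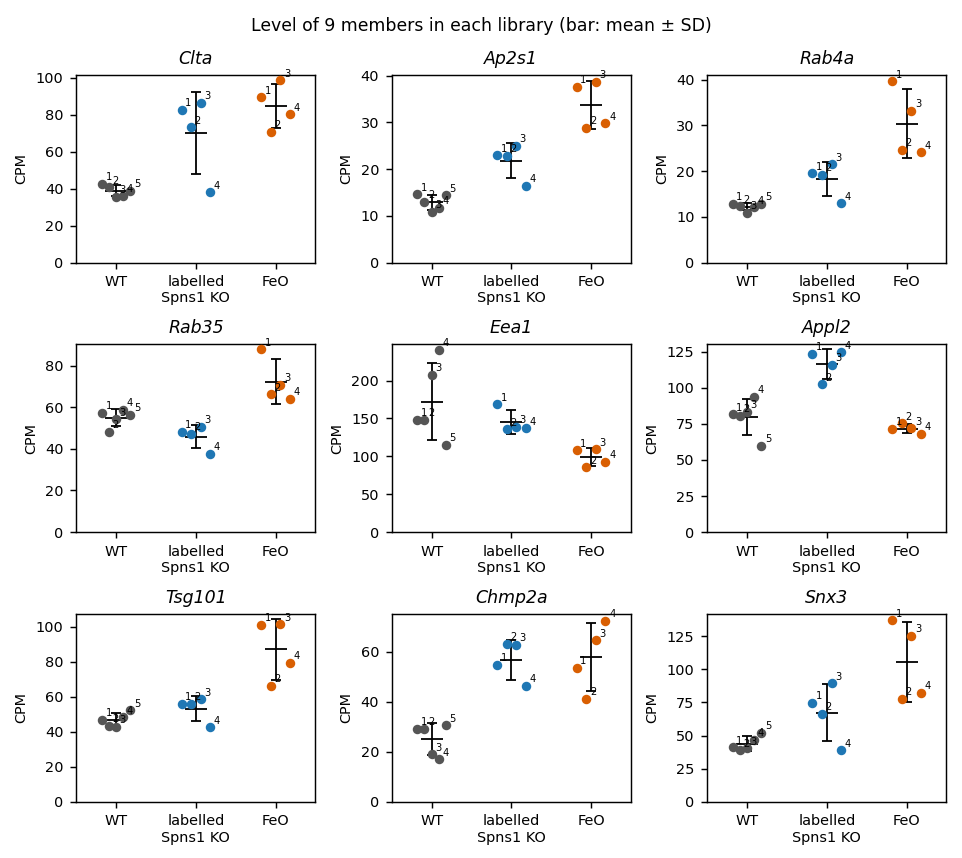
CPM of 9 of the genes in each library (points numbered by replicate), with the mean and SD of each group as bars; axes start at 0. Ap2s1 and Rab4a rise from WT over the libraries labelled Spns1 KO to FeO without overlap of the groups, Rab35 and Tsg101 are separated between FeO and the libraries labelled Spns1 KO, and Appl2 is high in the latter alone of these groups.

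All 9 endosomal Rab GTPases lay above WT in FeO, against 49.5% of all tested genes. There 5 were upregulated, against 22.4% of all tested genes, and the median log2 fold change was 0.62. In the libraries labelled Spns1 KO 3 were upregulated, against 14.1% of all tested genes, none went down past the limits, and the median was 0.22. Rab4a, which drives rapid return of receptors to the surface (chromosome 8, 123805985 to 123835287), was at 12.8, 12.3, 10.9, 12.1 and 12.8 CPM in WT 1 to 5. It was at 19.5, 19.2, 21.5 and 13 CPM in the libraries labelled Spns1 KO and at 39.7, 24.7, 33.2 and 24.1 CPM in FeO. The groups did not overlap, although the library labelled Spns1 KO 4 lay only just above the WT range. The log2 fold changes were 0.59 (SE 0.182, adjusted p = 0.0291, edgeR) and 1.32 (SE 0.183, adjusted p = 0.00031, edgeR). The former call was lost without any one of the libraries labelled Spns1 KO 1, 2 or 3 or of WT 2 or 3, where the log2 fold change was 0.50 to 0.59. Rab11a, the GTPase of the recycling endosome, was at 50.7, 51.5, 50, 62.7 and 60.9 CPM in WT and at 151.2, 78.4, 133.4 and 95.9 CPM in FeO. The libraries labelled Spns1 KO had 81.2, 75.8, 104.7 and 57.7 CPM, of which the first 3 lay above WT. Its log2 fold change was 1.06 (SE 0.201, adjusted p = 0.000922, edgeR) in FeO and 0.53 (SE 0.200, adjusted p = 0.0638, edgeR) in the libraries labelled Spns1 KO, or 0.66 without the library labelled Spns1 KO 4 (adjusted p = 0.0167, edgeR).

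The 3 Rab5 genes, which encode forms of the same early endosome GTPase, did not pass the limits in the same comparisons. Differences between these genes were not tested, and Rab5b and Rab5c had nearly the same value in FeO. Rab5b was at 110.4, 112.0, 114.3, 155.9 and 125.3 CPM in WT, 172.5, 135.7, 178.9 and 86.6 CPM in the libraries labelled Spns1 KO and 295.8, 169.3, 256.7 and 202.7 CPM in FeO. All FeO libraries lay above WT, whereas the libraries labelled Spns1 KO lay on both sides of the WT range. Its log2 fold change was 0.90 (SE 0.218, adjusted p = 0.00394, edgeR) in FeO and 0.21 (adjusted p = 0.494, edgeR) in the libraries labelled Spns1 KO. Rab5c was upregulated in both, at 0.74 (SE 0.176, adjusted p = 0.00752, edgeR) and 0.90 (SE 0.177, adjusted p = 0.00113, edgeR). Rab5a, with the palindrome in its promoter, had -0.01 and 0.41 and passed the limits in neither, nor did Rab14 (-0.06 and 0.23). Of the 31-base words of Rab5b, 15.7% also occur in Gm13991. Rab7 was upregulated in both comparisons, at 0.66 (SE 0.187, adjusted p = 0.0194, edgeR) and 0.62 (SE 0.187, adjusted p = 0.0144, edgeR), the former not without the library labelled Spns1 KO 1 (0.58) or 3 (0.57), and 16.3% of its words are shared, mostly with Rab7-ps1.

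Among the 5 Rab5 effectors and early endosome proteins, the direction differed from that of the GTPases they bind. All 5 lay below WT in FeO (median log2 fold change -0.40), and 4 of 5 in the libraries labelled Spns1 KO (median -0.27). Their median transcript length was 7642 bases, and with length and GC content accounted for as described further on the medians were 0.00 and 0.12, so the direction did not hold there. Eea1, the long coiled-coil tether of early endosomes (chromosome 10, 95940650 to 96045518), was at 148.1, 148.1, 207.6, 240.4 and 115.5 CPM in WT and at 108.1, 85.5, 109.4 and 93.1 CPM in FeO. The libraries labelled Spns1 KO had 168.8, 135.6, 138.6 and 136.8 CPM, within the WT range and above every FeO library. Its log2 fold change was -0.80 (SE 0.199, adjusted p = 0.00493, edgeR) in FeO and -0.25 (adjusted p = 0.375, edgeR) in the libraries labelled Spns1 KO. Appl1 and Appl2 encode related adaptors of Rab5 endosomes that precede Eea1. Appl2 was at 81.5, 80.5, 83.2, 93.8 and 59.6 CPM in WT, 123.7, 102.5, 115.7 and 124.7 CPM in the libraries labelled Spns1 KO and 71.4, 75.3, 71.8 and 68.3 CPM in FeO. All 4 libraries labelled Spns1 KO, number 4 included, lay above all others. Its log2 fold change there was 0.55 (SE 0.141, adjusted p = 0.0117, edgeR), falling to 0.48 and under the fold limit without WT 5, and in FeO it was -0.15. Appl1 was at 61.2, 64.7, 85.2, 105.7 and 55.9 CPM in WT, 53.0, 52.9, 54.1 and 47.7 CPM in the libraries labelled Spns1 KO and 65.9, 50.1, 55.9 and 52.3 CPM in FeO.

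Appl1 was thus below every WT library in all 4 libraries labelled Spns1 KO, by a log2 fold change of -0.52 (SE 0.178, adjusted p = 0.044, edgeR). This downregulation was lost in all but 2 of the 13 fits that left out a library, those without WT 1 or WT 5, and reached -0.35 without WT 4. The other lost values were -0.57 to -0.45. In FeO the log2 fold change of Appl1 was -0.41. The remaining genes of the list, the Rab5 effector Ankfy1 and the rabaptin gene Rabep1, gave -0.27 and -0.28 in the libraries labelled Spns1 KO and -0.40 and -0.39 in FeO. Rabep1 lay below every WT library in both, with an adjusted p of 0.0208 (edgeR) in FeO and a change under the fold limit.

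**Figure D3:**
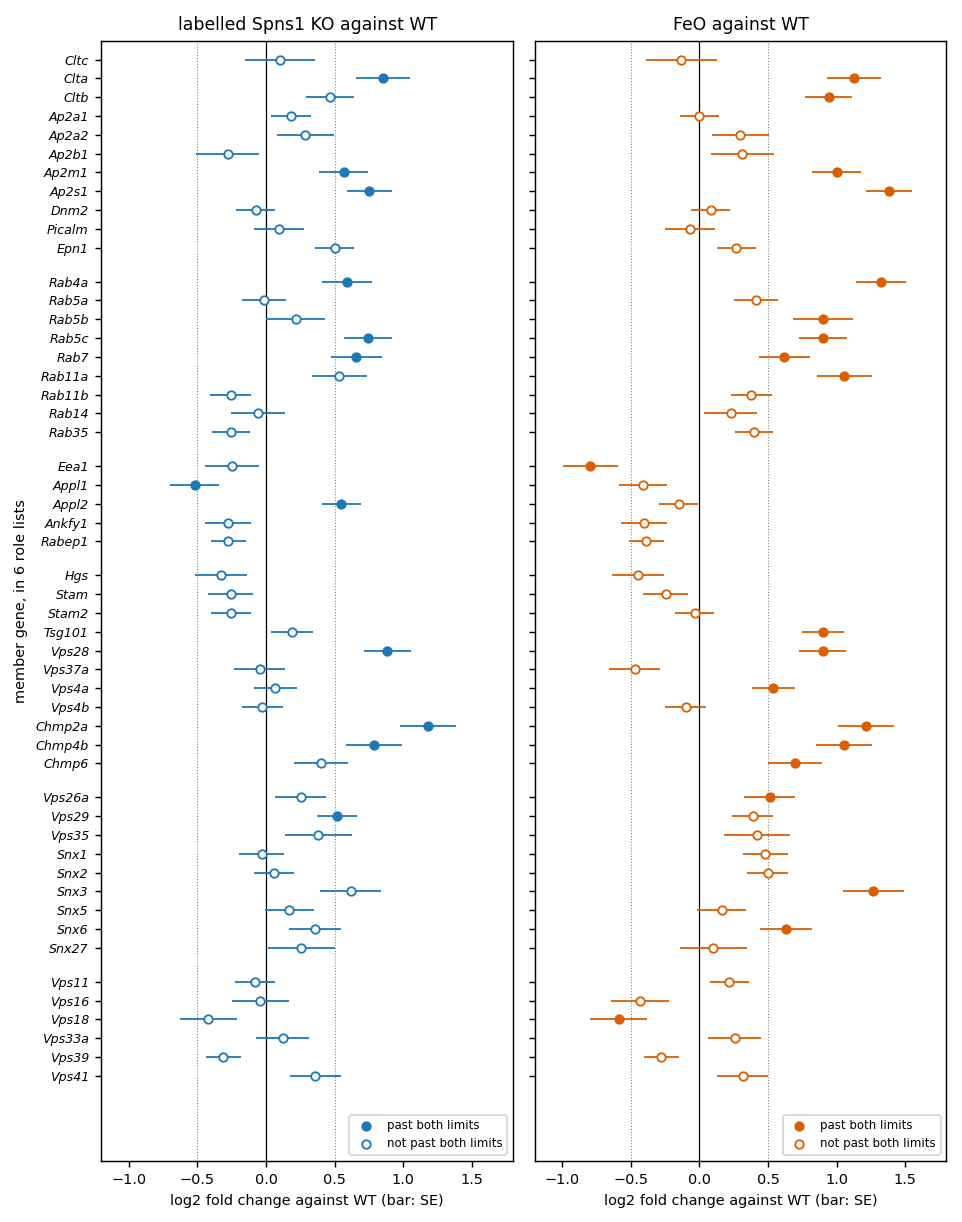
Log2 fold change against WT with its SE for the 51 genes, in the libraries labelled Spns1 KO (left) and in FeO (right), grouped by role list. Filled points passed both limits (adjusted p and a log2 fold change beyond 0.5, dotted lines). In FeO the Rab and the retromer and sorting nexin points all lie to the right of 0 and the Rab5 effectors all to the left.

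Of the 11 genes in the ESCRT list, 3 were up in the libraries labelled Spns1 KO and 6 in FeO, with none down and medians of 0.07 and 0.54. Over all tested genes 14.1% and 22.4% were upregulated. Chmp2a, an ESCRT-III subunit of the filament that closes inward vesicles (chromosome 7, 13032010 to 13034807), was at 29.2, 29.1, 19.0, 17 and 30.6 CPM in WT. It was at 54.7, 63.1, 62.7 and 46.2 CPM in the libraries labelled Spns1 KO and at 53.4, 41.1, 64.5 and 72.4 CPM in FeO. Both groups lay above every WT library, with number 4 included. The log2 fold changes were 1.18 (SE 0.204, adjusted p = 0.00106, edgeR) and 1.21 (SE 0.204, adjusted p = 0.000535, edgeR), and 10.5% of its 31-base words are shared with Gm8185. Chmp4b, the main filament-forming subunit, was at 41.3, 38.5, 33.5, 35.0 and 43.5 CPM in WT, 72.4, 67.9, 82.6 and 42.0 CPM in the libraries labelled Spns1 KO and 102.2, 52.3, 89.3 and 74.7 CPM in FeO. Only the library labelled Spns1 KO 4 overlapped WT. The log2 fold changes were 0.79 (SE 0.204, adjusted p = 0.0123, edgeR), lost without the library labelled Spns1 KO 3 (0.67), and 1.05 (SE 0.204, adjusted p = 0.00106, edgeR).

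Tsg101, the ESCRT-I subunit that takes over ubiquitinated cargo, was at 46.7, 43.4, 42.7, 48.4 and 52.3 CPM in WT and at 101.3, 66.2, 101.6 and 79.6 CPM in FeO. Its values in the libraries labelled Spns1 KO were 56.1, 56.0, 58.6 and 42.5 CPM. All FeO libraries lay above all others, and the library labelled Spns1 KO 4 lay below every WT library. The log2 fold change was 0.90 in FeO (SE 0.154, adjusted p = 0.000566, edgeR) and 0.19 in the libraries labelled Spns1 KO (adjusted p = 0.382, edgeR), and 35.3% of the 31-base words of Tsg101 also occur in Tsg101-ps. Its ESCRT-I partner Vps28 was upregulated in both, at 0.88 (SE 0.171, adjusted p = 0.00219, edgeR) and 0.90 (SE 0.171, adjusted p = 0.000922, edgeR), and overlaps the gene Tonsl. The further partner Vps37a, a longer gene, had -0.05 and -0.47 and was not past the limits. With the length and GC trend removed, Vps28 and Vps37a had 0.35 and 0.36 in the libraries labelled Spns1 KO, and the difference between these genes was not tested. In FeO the ESCRT-III nucleator Chmp6 rose by 0.70 (SE 0.197, adjusted p = 0.0102, edgeR) and the disassembly ATPase Vps4a by 0.54 (SE 0.157, adjusted p = 0.0118, edgeR), the latter not without FeO 3 (0.45). The ESCRT-0 genes Hgs, Stam and Stam2 all had negative values, from -0.33 to -0.26 in the libraries labelled Spns1 KO and from -0.45 to -0.03 in FeO, and none passed the limits. Vps4b, the paralog of Vps4a, had -0.03 and -0.10.

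All 9 retromer and sorting nexin genes lay above WT in FeO (median 0.48, 3 upregulated) and 8 of 9 in the libraries labelled Spns1 KO (median 0.26, 1 upregulated), or 7 of 9 without TMM scaling. Of all tested genes, 49.5% lay above WT in FeO and 46.8% in the libraries labelled Spns1 KO, and 22.4% and 14.1% were upregulated. Snx3, a sorting nexin that brings retromer to early endosomes (chromosome 10, 42502030 to 42535381), was at 41.2, 38.7, 40.4, 46.9 and 51.9 CPM in WT and at 137.2, 77.8, 125.2 and 82.2 CPM in FeO. The libraries labelled Spns1 KO had 74.6, 66.2, 89.5 and 38.7 CPM, so number 4 was level with the lowest WT library and the others lay above WT. The log2 fold change was 1.27 in FeO (SE 0.224, adjusted p = 0.000626, edgeR) and 0.62 in the libraries labelled Spns1 KO (SE 0.223, adjusted p = 0.0554, edgeR), or 0.81 without number 4 (adjusted p = 0.00478, edgeR). Snx6, a membrane-bending sorting nexin, was at 47.2, 44.5, 49.3, 59.7 and 53.9 CPM in WT, 75.9, 65.9, 75.7 and 42.7 CPM in the libraries labelled Spns1 KO and 75.5, 64.2, 107.6 and 67.8 CPM in FeO. FeO lay wholly above WT. The log2 fold change in FeO was 0.63 (SE 0.190, adjusted p = 0.0142, edgeR) and 0.44, under the fold limit, without FeO 3.

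Vps26a, Vps29 and Vps35 form the cargo-binding core of retromer. Vps29 was at 56.8, 55.6, 53.5, 53.4 and 44.0 CPM in WT, 78.4, 78.3, 85.5 and 59.1 CPM in the libraries labelled Spns1 KO and 72.6, 61.5, 81.1 and 60.3 CPM in FeO. Both groups lay above every WT library. The log2 fold change was 0.52 (SE 0.146, adjusted p = 0.0192, edgeR) in the libraries labelled Spns1 KO, between 0.45 and 0.50 and under the fold limit without any one of numbers 1, 2 and 3 or WT 5, and 0.39 (adjusted p = 0.0409, edgeR) in FeO. Vps26a, which has the promoter palindrome, reached 0.51 (SE 0.186, adjusted p = 0.0351, edgeR) in FeO. That call was lost without FeO 1 or 3 or WT 1, 2, 3 or 5 (0.38 to 0.52). Vps35, the scaffold, had 0.38 and 0.42 and passed the limits in neither. The membrane-bending nexins Snx1, Snx2 and Snx5 and the recycling nexin Snx27 had values from -0.03 to 0.26 in the libraries labelled Spns1 KO. In FeO those of Snx1 and Snx2, 0.48 and 0.50, had an adjusted p of 0.025 and 0.0129 (edgeR) but were under the fold limit, and Snx5 and Snx27 had 0.16 and 0.10. The ratio of Vps29 to Vps35 per kilobase, also chosen after the values were seen, was 0.416 to 0.671 in WT, 0.518 to 0.849 in the libraries labelled Spns1 KO and 0.458 to 0.689 in FeO, with all 3 ranges overlapping.

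The HOPS and CORVET list had medians of -0.06 in the libraries labelled Spns1 KO and -0.03 in FeO and a single call. That call was 1 of 6 genes downregulated in FeO (16.7%), against 19.7% of all tested genes. Vps18, a core subunit of both tethers (chromosome 2, 119288740 to 119298453), was at 50.5, 43.9, 40.4, 31.9 and 33.9 CPM in WT and at 21.9, 41.2, 23.3 and 20.2 CPM in FeO. The libraries labelled Spns1 KO had 27.8, 27.5, 28.4 and 36.1 CPM. FeO 1, 3 and 4 lay below every WT library and FeO 2 inside the WT range. The log2 fold change in FeO was -0.59 (SE 0.210, adjusted p = 0.0312, edgeR), and the call was lost without any one of FeO 1, 3 or 4 or WT 1, 2 or 3 (-0.57 to -0.45). Vps39, a HOPS subunit that binds Rab7, lay below WT in every library of both groups but changed by only -0.31 and -0.28 (adjusted p = 0.0854 and 0.0851, edgeR). Vps33a and Vps16, both with the palindrome in their promoters, had 0.12 and -0.04 in the libraries labelled Spns1 KO and 0.26 and -0.43 in FeO. Vps11 and Vps41, the other subunits, had -0.08 and 0.36 in the libraries labelled Spns1 KO and 0.22 and 0.32 in FeO, none past the limits.

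The libraries labelled Spns1 KO and FeO were also tested against each other in the same fit. Of the 51 genes, 1 was higher and 5 were lower in the libraries labelled Spns1 KO, against 6.81% and 8.05% of all tested genes (14.9% in either direction), and the median difference was -0.14 compared with 0.03 over all tested genes. Appl2 was the one higher, by a log2 difference of 0.70 (SE 0.150, adjusted p = 0.00831, edgeR). Those lower were Rab4a (-0.73, SE 0.193, adjusted p = 0.0204), Tsg101 (-0.71, SE 0.164, adjusted p = 0.0112), Rab35 (-0.65, SE 0.147, adjusted p = 0.0101), Rab11b (-0.63, SE 0.159, adjusted p = 0.016) and Ap2s1 (-0.63, SE 0.173, adjusted p = 0.0253), all from the edgeR fit. In 3 of these 6, the recycling GTPases Rab4a, Rab35 and Rab11b, the difference fell in a single role list. The groups of all 6 did not overlap, and over all 51 genes 3 lay wholly higher and 5 wholly lower, against 8.25% and 9.1% of all tested genes.

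Rab35, which returns receptors from early endosomes to the surface (chromosome 5, 115631908 to 115647736), was at 57.4, 48.1, 54.1, 58.6 and 56.2 CPM in WT. It was at 48.1, 47.1, 50.5 and 37.7 CPM in the libraries labelled Spns1 KO and at 87.8, 66.1, 70.7 and 63.9 CPM in FeO. FeO lay above both other groups, by a log2 fold change of 0.39 against WT (adjusted p = 0.029, edgeR) that was under the fold limit. Rab11b, the relative of Rab11a (chromosome 17, 33742484 to 33760530), was at 150.4, 150.8, 148.2, 155.4 and 172.0 CPM in WT, 135.5, 113.4, 148.8 and 122.3 CPM in the libraries labelled Spns1 KO and 235.3, 177.1, 225.2 and 169.3 CPM in FeO. The 2 groups lay on either side of WT with some overlap, and neither passed the limits against it (-0.26 and 0.38). Of the words of Rab11b, 11.1% are shared, mostly with Rab11b-ps2. Without the library labelled Spns1 KO 4 the call of Ap2s1 was lost (-0.51), as it was without numbers 1 or 2 or FeO 1 or 3 (-0.66 to -0.56). Those of Rab4a and Rab11b were lost without FeO 1 (-0.58, and -0.55), and that of Rab11b also without number 2 of the libraries labelled Spns1 KO (-0.57). The calls of Ap2s1, Rab4a and Rab11b were also lost when the WT libraries did not enter the fit. The calls of Appl2, Rab35 and Tsg101 held in that fit and in all 13 fits that left out a library.

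Transcript length moved with these results and is given here as a measurement. The median length of the 51 genes, 3020 bases for the longest coding transcript, was near the 3061 of all tested genes with a known length. For the 26 genes at or below 3020 bases the median log2 fold change was 0.51 in the libraries labelled Spns1 KO, with all 11 upregulated genes among them. The 25 longer genes had -0.06, with 0 upregulated. In FeO the medians were 0.66 and -0.04, with 17 and 1 upregulated genes, and both downregulated genes were among the longer. Across the 51 genes, log2 length and log2 fold change had a Pearson r of -0.74 and a Spearman rho of -0.70 in the libraries labelled Spns1 KO, and -0.80 and -0.81 in FeO. Those genes share the libraries and are not independent replicates. All tested genes showed the same slope, from a median of 0.61 under 1000 bases to -0.38 at 6000 bases or more in the libraries labelled Spns1 KO and from 0.80 to -0.62 in FeO.

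**Figure D4:**
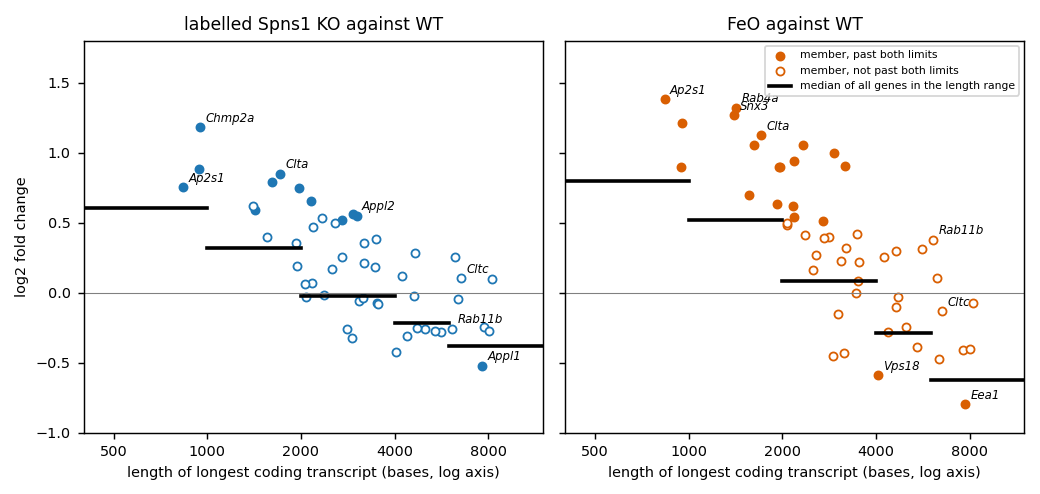
Log2 fold change against WT of the 51 genes by the length of the longest coding transcript in bases (log axis), for the libraries labelled Spns1 KO (left) and FeO (right). Filled points passed both limits, and black lines give the median of all tested genes in 5 length ranges. Short genes such as Ap2s1 and Chmp2a are high and long genes such as Eea1 and Appl1 low, and most points between 1000 and 4000 bases lie above the line for their range in FeO.

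Within each of the 5 length ranges the median of the genes described here lay above that of all tested genes in FeO, and in the libraries labelled Spns1 KO it did so in 4, the exception being 4000 to 6000 bases (-0.26 against -0.22). Between 1000 and 2000 bases, 8 of 8 were upregulated in FeO against 43.3% of all genes in that range, and 4 of 8 in the libraries labelled Spns1 KO against 26.9%. Between 2000 and 4000 bases, 7 of 23 were upregulated in FeO against 21.1%, and 4 of 23 in the libraries labelled Spns1 KO against 11.2%. The medians of those 23 were 0.40 and 0.18, compared with 0.09 and -0.02 over all genes in the range. When the dependence on length and GC content was smoothed and subtracted in each library before fitting, 16 genes were upregulated and 2 downregulated in FeO with a median of 0.33, and 45 of 51 lay above WT. Over all 16468 tested genes, 3184 were upregulated and 2250 downregulated in FeO in that fit, 8660 lay above WT and the median was 0.04. In the libraries labelled Spns1 KO 5 remained past the limits, all upward, with a median of 0.17. Over all 16468 tested genes, 1723 were upregulated and 770 downregulated there, with a median of -0.03. The share upregulated in that group was thus no higher among the 51 genes than over all tested genes.

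In this fit Ap2s1 in the libraries labelled Spns1 KO went from 0.75 to 0.11, Rab4a to 0.17 and Appl1 to -0.10, each below the limits, as were Clta (0.51, adjusted p = 0.0538, edgeR), Rab5c (0.48), Vps28 (0.35) and Chmp4b (0.41). Ap2m1, Rab7, Appl2, Chmp2a and Vps29 kept their calls. Among the role lists, the median in FeO became 0.56 for clathrin and AP-2, 0.59 for the Rabs, 0.29 for ESCRT and 0.37 for retromer and sorting nexins. In FeO the call of Eea1 was lost (-0.14), as were those of Rab7 (0.42), Vps28 (0.33), Vps4a (0.30), Chmp6 (0.28), Vps26a (0.47) and Snx6 (0.37), and Ap2b1 (0.69), Picalm (0.56), Rab11b (0.81) and Snx27 (0.59) were upregulated and Hgs (-0.53) downregulated in their place. Ap2s1, Clta, Cltb, Ap2m1, Rab4a, Rab11a, Rab5b, Rab5c, Chmp2a, Chmp4b, Tsg101 and Snx3 remained upregulated in FeO, at 0.585 to 1.07. Vps18 remained downregulated there, at -0.501. All 6 genes that differed between the libraries labelled Spns1 KO and FeO kept their calls, at -0.78 to -0.61 for the 5 lower genes and 0.77 for Appl2.

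Other genes of the same pathways were taken from a list of 120, of which 119 were tested. In the libraries labelled Spns1 KO 17 were upregulated (14.3%, against 14.1% of all tested genes) and 6 downregulated (5.04%, against 7.6%), with a median of 0.03. In FeO 33 were upregulated (27.7%, against 22.4%) and 19 downregulated (16%, against 19.7%), with a median of 0.20. With the length and GC trend removed these counts were 9 and 5, and 31 and 7. The share called up was highest of these lists in the 25 genes of retromer-like recycling (the WASH, retriever and CCC complexes and further sorting nexins), where 9 rose and none fell past the limits in the libraries labelled Spns1 KO, and 14 rose and 2 fell in FeO. That is 36% and 56% upregulated, but with the trend removed 3 rose in the libraries labelled Spns1 KO, and 11 rose and 1 fell in FeO. In the libraries labelled Spns1 KO the 40 further clathrin adaptors and accessory proteins had 3 up (7.5%) and 2 down (5%). In FeO these 40 had 5 up (12.5%) and 6 down (15%). Each of these shares was under that of all tested genes. The genes with the lowest adjusted p included Commd1, a CCC subunit, at 5.95 ± 0.97 CPM (SD, n = 5) in WT, 13 ± 3.36 (n = 4) in the libraries labelled Spns1 KO and 15.9 ± 3.44 (n = 4) in FeO. Its log2 fold changes were 1.13 (SE 0.217, adjusted p = 0.00215, edgeR) and 1.42 (SE 0.217, adjusted p = 0.000381, edgeR). Snx32, a relative of Snx6, rose in the libraries labelled Spns1 KO by 0.93 (adjusted p = 0.00172, edgeR) and had 0.07 in FeO, and the neuronal dynamin Dnm1 rose by 0.90 from 3.92 CPM (adjusted p = 0.00522, edgeR).

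Of the 6 genes downregulated in the libraries labelled Spns1 KO, those with the lowest adjusted p were Rabgap1, Rabgef1 and Epn2. Their log2 fold changes were -0.65, -0.62 and -0.59, with adjusted p values of 0.00363, 0.0158 and 0.0197 (edgeR). Rabgap1 encodes a GTPase-activating protein for Rabs, Rabgef1 the exchange factor that activates Rab5 together with rabaptin, and Epn2 an epsin. In FeO the lowest adjusted p among the upregulated genes after Commd1 were those of Rab25 (1.8, adjusted p = 0.000399), an epithelial relative of Rab11, and Ap1s1 (1.33, adjusted p = 0.000413), the small subunit of the Golgi adaptor AP-1. Rab25 was variable in FeO, at 14.4 ± 6.93 CPM (SD, n = 4) compared with 4.15 ± 0.99 in WT (n = 5). Of the 19 genes downregulated in FeO, those with the lowest adjusted p were Itsn2, an endocytic scaffold, the AP-2 kinase Aak1 and the CCC subunit Ccdc93. Their log2 fold changes were -0.98, -1.15 and -1.04, with adjusted p values of 0.000575, 0.000661 and 0.00075 (edgeR, as for Rab25 and Ap1s1). After removal of the length and GC trend, Commd1, Snx32, Dnm1, Rab25 and Ap1s1 stayed upregulated where they are named above, as did Rabgef1, Itsn2 and Ccdc93 among the downregulated, while Rabgap1 (-0.42), Epn2 (-0.47) and Aak1 (-0.34) were no longer past the limits.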

How the data were processed

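Tagged RNA of 13 mouse kidney libraries was sequenced by the authors, who deposited 1 table of estimated counts per gene symbol, not normalized and not always whole. The submitters' processing notes name bcl2fastq 2.19, kallisto 0.44.0 and GRCm38, whereas the methods describe alignment and HTSeq counting, so the step that made the table is not settled. The counts were rounded to whole numbers. No molecular identifiers were given, so counting error is not the whole error. Differences were tested in R 4.3.3 with edgeR 4.0.16 (TMM factors, filterByExpr, robust quasi-likelihood fit over all 13 libraries, Benjamini-Hochberg adjustment over 16468 genes), at an adjusted p of 0.05 and a log2 fold change of 0.5, the limits of the study, which used DESeq2. The fit was also run on simulated counts. These held no length trend and no library that stood apart, so that run does not bear on either.

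Groups came from the sample labels. Members, role lists, markers and the 120 other pathway genes were listed by function, with earlier results of these data known. Every member called in any comparison was named. Values in every library were given for up to 3 called members per role list with the largest absolute log2 fold change against WT and for each member called between the libraries labelled Spns1 KO and FeO, and others served as stated examples. Of the other pathway genes, up to 3 per comparison with WT and direction with the lowest adjusted p were named. Gene coordinates and lengths are from GENCODE M21 on GRCm38, and 31-base words shared with other annotated transcripts were counted, since such reads may be split between genes. Alternatives were other scalings, no filter, DESeq2 1.42.0, limma-voom (limma 3.58.1), fits of only the groups compared, a replicate block, removal of a length and GC trend, and leaving out each library in turn.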

Additional observations from a re-analysis of the deposited data

Results flagged for a closer look

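In 7 of 153 gene and group combinations, 1 library lay far from the rest of its group by Dixon's test, and chance flags about 1 in 20 groups, or 7.65 here. Rab14 was at 264.8 CPM in WT 4, with the other WT libraries at 186.7 to 206.7. Eea1 was at 168.8 CPM in the library labelled Spns1 KO 1, with the others of that label at 135.6 to 138.6. The library labelled Spns1 KO 4 was the far one for Tsg101 (42.5 CPM, others 56.0 to 58.6), Vps16 (65.5 CPM, others 37.3 to 42.1) and Vps18 (36.1 CPM, others 27.5 to 28.4). Vps29 was at 44.0 CPM in WT 5, with the others at 53.4 to 56.8, and Vps18 was at 41.2 CPM in FeO 2, with the others at 20.2 to 23.3.

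The change against WT differed between the libraries labelled Spns1 KO and FeO for 6 genes, by the test of the difference itself in the edgeR fit. The log2 difference was -0.63 for Ap2s1, -0.73 for Rab4a, -0.63 for Rab11b, -0.65 for Rab35, -0.71 for Tsg101 and 0.70 for Appl2. All 13 libraries entered that fit, so the WT libraries helped to set its spread, and the calls of Ap2s1, Rab4a and Rab11b were lost in a fit without them.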

How the results depend on the processing

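No called gene of the 51 changed direction under any alternative, and DESeq2 kept all 12 calls made against WT in the libraries labelled Spns1 KO, all 20 in FeO and all 6 between these groups. The 11 upregulated genes of the libraries labelled Spns1 KO became 5 with the length and GC trend removed, 7 without TMM scaling and 6 to 18 when a library was left out (7 without number 1, 6 without number 3 and 18 without number 4). The single downregulated gene, Appl1, became 0 with no filter, with the trend removed, with limma-voom, in the fit of only those groups and in some leave-one-out fits (0 to 1). In FeO the 2 downregulated genes became 1 with no filter, 4 with the adjusted p alone and 1 to 4 with a library left out (4 without WT 4). Between the libraries labelled Spns1 KO and FeO, the 1 higher gene became 1 to 2 (2 without WT 4), and the 5 lower became 8 without TMM, 2 in the fit of only those groups and 2 to 10 with a library left out (2 without FeO 1, 10 without FeO 2 or FeO 4, 3 without number 2 and 9 without number 3 of the libraries labelled Spns1 KO). The cause was not tested. Without TMM the median of all genes in the libraries labelled Spns1 KO moved from -0.05 to -0.18 and that of the 51 from 0.17 to 0.04. That scaling also ended the calls of Ap2m1 (0.43), Rab4a (0.46), Appl2 (0.42) and Vps29 (0.39) in that group and of Vps4a (0.47) and Vps26a (0.43) in FeO. Over all genes the calls of the libraries labelled Spns1 KO went from 2325 up and 1252 down to 1737 and 2092 without TMM, to 2463 and 788 with no filter, to 1723 and 770 with the trend removed, to 3006 and 2667 without number 4 and to 1528 and 495 without number 3.

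Same-numbered libraries of different groups had correlations of their deviations between -0.296 and 0.256, and differently numbered ones between -0.317 and 0.367. With so few libraries per group, these values cannot show whether same-numbered libraries were paired. With the replicate block 8 genes were upregulated and 1 downregulated in the libraries labelled Spns1 KO, 18 and 3 in FeO, and 1 and 5 between these groups, and the calls of Ap2m1, Rab7, Appl2 and Vps29 in the first and of Vps26a in FeO were lost. Without WT 1 or WT 2, the closest pair, the counts were 11 and 1 or 10 and 0 in the libraries labelled Spns1 KO and 19 and 2 or 17 and 1 in FeO.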
